A study of Mus musculus with 18 samples.

Results

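The mitochondrial genome of the mouse carries all the genes described here: every row of the count table whose symbol begins with mt-, which was 37 of 55536 rows. They comprise 13 protein genes, 2 ribosomal RNA (rRNA) genes and 22 transfer RNA (tRNA) genes, and the symbol alone chose them, with no measured value. Islet RNA came from male NOD.CB17-Prkdcscid/NCrCrl mice aged 17 weeks, an immunodeficient strain on the NOD background whose Prkdc mutation all 6 groups carry. The mice were wild type (WT, ZNT8 +/+), heterozygous (Het, ZNT8 +/-) or knockout (KO, ZNT8 -/-) for Slc30a8, the gene of the zinc transporter ZnT8 of insulin granules. After overnight culture the islets were kept for 24 h in medium alone or with 3 cytokines, TNF-alpha (100 pg/ml), IL-1beta (at 150 pg/ml) and IFN-gamma (10 pg/ml), with 3 libraries in each of the 6 groups. Which libraries share a mouse is not stated, so each p-value reflects the spread among libraries, which may be technical. If treated and untreated islets came from 1 mouse, the p-values of genotype averaged over treatments are too small.

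Mitochondrial DNA is transcribed from both strands into long precursor RNAs, and the tRNAs between most genes mark where these are cut into mRNAs, rRNAs and tRNAs. The 13 proteins are core subunits of complexes I, III and IV and of ATP synthase, which are completed by nuclear-encoded subunits, and the rRNAs and tRNAs serve the ribosomes that translate them inside the organelle. In beta cells the respiratory chain couples glucose oxidation to the rise in ATP that closes the potassium channels and triggers insulin release. Because neighbouring mitochondrial genes share precursors, their values within a library are not independent.

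The libraries held 22990164 to 29946680 counted reads, and levels are given in CPM, each gene's reads scaled to a common library total. Slc30a8 stood at 101, 126 and 124 CPM in the WT group, at 123, 97.9 and 115 CPM in the Het group and at 45.9, 55.4 and 45.2 CPM in the KO group without cytokines. Slc30a8 with cytokines stood at 34.6, 42.8 and 46.00 CPM in the WT group, at 32.2, 34.2 and 56.3 CPM in the Het group and at 20.4, 22.5 and 20.4 CPM in the KO group. In both treatments every KO library was below every WT and Het library, and WT and Het overlapped. Each library held at least 88009 CPM of Ins2 and at least 6816 CPM of the alpha cell gene Gcg, so the defining genes of islets were present. The summed level of 20 acinar cell markers, from exocrine tissue around islets, was 6246 to 11627 CPM in WT, 3064 to 4946 CPM in Het and 833 to 2705 CPM in KO libraries.

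Several mitochondrial genes have near-identical copies in the nuclear genome, and the sequences are shown because they bear on the counts of the genes that are copied. Among the annotated nuclear transcripts of GENCODE M21 (GRCm38, the build of the files), 17 rows aligned to a mitochondrial gene at 90% identity or more over at least 100 bases, and 7 of them lie in 1 block on the minus strand of chromosome 1, chr1:24611535-24616197. This block repeats the mitochondrial order from within mt-Co1 to within mt-Nd4. Its pseudogene Gm10925 matches mt-Atp6, a subunit of ATP synthase, without a mismatch over 678 bases, and Gm28438 matches mt-Nd3, a subunit of complex I, with 1 mismatch over 345 bases. The first pair below is the start of mt-Atp6 (chrM:7927-7986, plus strand) and its copy (chr1:24614592-24614651, minus strand), which are the same letter for letter. The second is the start of mt-Nd3 (chrM:9459-9518, plus strand) and its copy (chr1:24613060-24613119, minus strand), with the single mismatch in capitals.
mt-Atp6: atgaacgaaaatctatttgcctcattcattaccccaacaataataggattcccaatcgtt
Gm10925: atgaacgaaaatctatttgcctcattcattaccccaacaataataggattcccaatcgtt
mt-Nd3: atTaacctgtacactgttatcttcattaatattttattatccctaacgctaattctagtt
Gm28438: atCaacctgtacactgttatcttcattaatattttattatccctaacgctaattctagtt

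The compact layout of the mitochondrial genome also leaves some reads without a single owner. The last 43 bases of mt-Atp8 are the first 43 bases of mt-Atp6 (chrM:7927-7969, plus strand), printed with the start codon of mt-Atp6 and the stop codon of mt-Atp8 in capitals. The 3 genes mt-Co3, mt-Nd4 and mt-Cytb end in a single T, in capitals below, which is the first base of a stop codon that is completed when the RNA gets its poly(A) tail. The stretches are chrM:9360-9390, chrM:11514-11544 and chrM:15258-15288, all on the plus strand.
mt-Atp8 and mt-Atp6: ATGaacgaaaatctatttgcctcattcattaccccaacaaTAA
mt-Co3 end: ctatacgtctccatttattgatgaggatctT
mt-Nd4 end: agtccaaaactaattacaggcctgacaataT
mt-Cytb end: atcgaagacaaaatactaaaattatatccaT

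Of the 6249863 mitochondrial reads in all libraries, 95.5% were on protein genes, 4.53% on the rRNA genes and 0.0208% on the tRNA genes. On the scale of RPKM, which is CPM divided by the transcript's length in kilobases, so that genes of different length can be compared, mt-Co1 (catalytic subunit of complex IV) was highest at 2450 ± 277 (SD over 18 libraries). It was followed by mt-Cytb, the mitochondrial subunit of complex III, at 2434 ± 238, and mt-Co1 exceeded mt-Cytb in 11 of 18 libraries, so the order of these 2 was not fixed. The complex I subunits followed with mt-Nd1 at 1834 ± 289.8, mt-Nd5 at 1165 ± 141, mt-Nd2 at 963 ± 139.97 and mt-Nd4 at 621 ± 57.1, each above the next in 18 of 18 libraries. The light-strand gene mt-Nd6, the single protein gene read from the other strand, stood at 59.5 ± 6.98.

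The rRNAs were below the 6 most abundant mRNAs per length, with means of 247 RPKM for mt-Rnr2, the large-subunit rRNA, and 205 RPKM for mt-Rnr1, the small-subunit rRNA. The way in which the libraries selected RNA, by poly(A) tail or by removal of cytosolic rRNA, was not stated in the sources read. So the ratio of rRNA to mRNA reads cannot be taken as their ratio in the cells.

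The remaining 6 protein genes lay far lower. Mean RPKM was 25.6 for mt-Atp6, 23.2 for mt-Co2, 21.5 for mt-Co3, 10.1 for mt-Nd4l, 4.35 for mt-Atp8 and 3.87 for mt-Nd3. For 5 of them, 97.6% to 99.9% of all 100-base windows occur without a mismatch in an annotated nuclear transcript, and their means ran from 3.87 to 25.6 RPKM. No window of mt-Atp8 was found in an annotated nuclear transcript, but it lies between mt-Co2 and mt-Atp6, and the chromosome 1 block holds 233 unannotated bases at that place, where the mitochondrial genome has 230. The other 7 protein genes, with 0 to 60.8% of windows copied, had means of 59.5 to 2450 RPKM. No source read here says how reads that match both places were counted, so the low counts of these 6 genes cannot be read as low RNA levels.

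**Figure D1:**
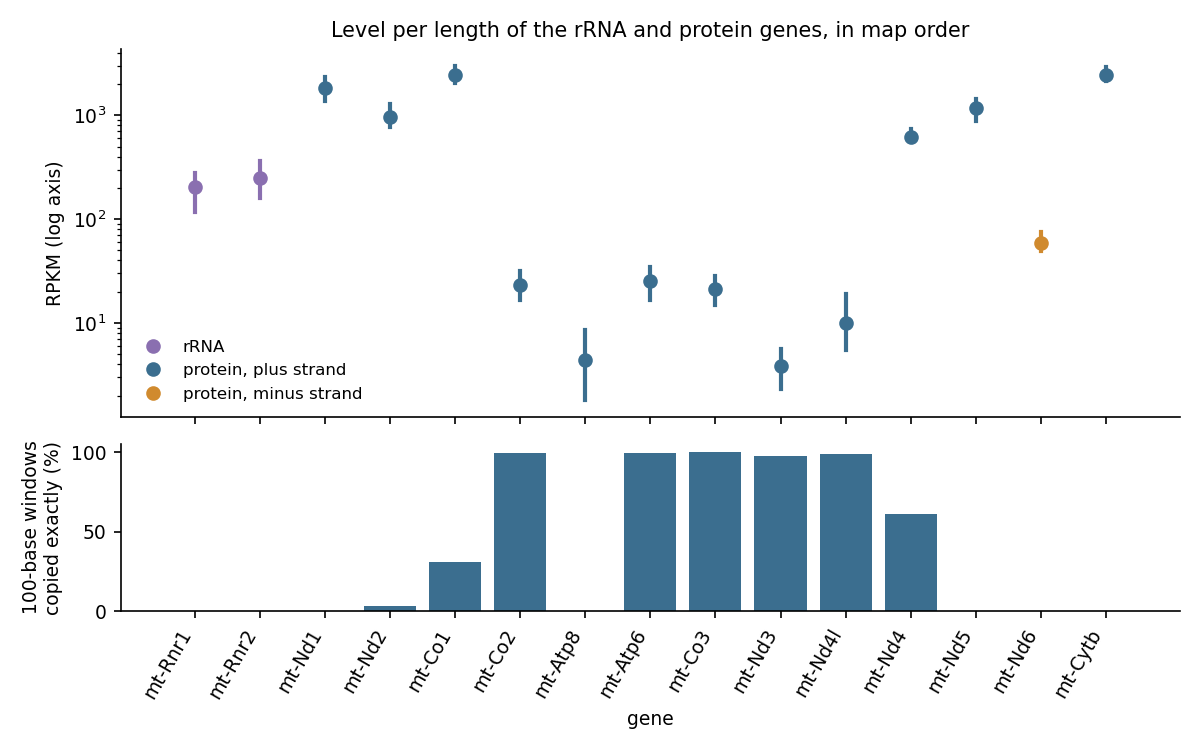
Upper panel: level per length (RPKM, log axis) of the 2 rRNA and 13 protein genes in their order on the mitochondrial genome, with the mean (point) and the range (line) over 18 libraries. Lower panel: percentage of 100-base windows of each gene found exactly in an annotated nuclear transcript; the 5 genes with nearly all windows copied have mean levels of at most 25.6 RPKM, as has mt-Atp8, which lies among them.

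The nuclear copies of mt-Co2, mt-Atp6 and mt-Co3 had mean counts close to those of the mitochondrial genes, and the copies of mt-Co1 had far fewer. Gm28661, the copy of mt-Co2, had a mean of 23.3 CPM against 15.9 CPM for mt-Co2 itself, and Gm10925 had 20.8 CPM against 17.4 CPM for mt-Atp6. Gm28437 had 14.4 CPM against 16.8 CPM for mt-Co3, Gm13340 on chromosome 2 had 16.5 CPM against 3785 CPM for mt-Co1, and Gm29216, also a copy of mt-Co1, had 9.26 CPM. Of the 17 copies, 12 passed the low-count filter, and 1 passed the test in any comparison: Gm28438, the copy of mt-Nd3, changed by 0.63 ± 0.17 (adjusted p = 0.0222) in KO against WT averaged over treatments by edgeR's quasi-likelihood test, on the log2 scale. That was 1 of the 12 copies tested, beside 15.1% of all genes called in this comparison. Its mitochondrial counterpart mt-Nd3 had 0.37 ± 0.20 (adjusted p = 0.219) in the same comparison.

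The tRNA genes were almost unread: all 22 together had 53 to 95 reads in a library and 1299 reads in all. Of these, 7 had no read in any library, namely mt-Tf, mt-Tk, mt-Tg, mt-Tr, mt-Th, mt-Ts2 and mt-Tl2, and a count of 0 allows up to 0.100 to 0.130 CPM in a library, with counting error alone. In contrast, 5 tRNA genes had reads in all 18 libraries, namely mt-Tw, mt-Tt, mt-Tp, mt-Tq and mt-Tl1, and the first 4 passed the low-count filter. mt-Tw, the tryptophan tRNA, stood at 26, 14 and 18 reads in the WT group, at 28, 32 and 30 reads in the Het group and at 22, 32 and 26 reads in the KO group without cytokines. mt-Tw with cytokines stood at 27, 13 and 23 reads in the WT group, at 26, 22 and 19 reads in the Het group and at 28, 18 and 32 reads in the KO group. In CPM all untreated Het libraries were above all untreated WT libraries, and the other groups overlapped.

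mt-Tt, the threonine tRNA, stood at 16, 15 and 20 reads in the WT group, at 18, 26 and 22 reads in the Het group and at 21, 24 and 29 reads in the KO group without cytokines. mt-Tt with cytokines stood at 20, 16 and 14 reads in the WT group, at 18, 19 and 13 reads in the Het group and at 27, 18 and 14 reads in the KO group. In CPM all untreated KO libraries were above all untreated WT libraries. mt-Tw and mt-Tt lie next to abundant mRNAs, since mt-Tw begins within the last 2 bases of mt-Nd2 and mt-Tt directly after mt-Cytb, and no source read here says how reads reaching into both genes were counted. This place is not particular to them. mt-Ti begins within the last 2 bases of mt-Nd1 and had 3 reads in all libraries, and mt-Th, 1 base after mt-Nd4, had 0. mt-Tp, the proline tRNA on the minus strand, stood at 12, 16 and 10 reads in the WT group, at 10, 6 and 6 reads in the Het group and at 6, 8 and 12 reads in the KO group without cytokines. mt-Tp with cytokines stood at 8, 10 and 4 reads in the WT group, at 2, 8 and 10 reads in the Het group and at 5, 5 and 11 reads in the KO group. In CPM all untreated Het libraries were below all untreated WT libraries. mt-Tq, the glutamine tRNA, stood at 7, 7 and 6 reads in the WT group, at 10, 8 and 8 reads in the Het group and at 5, 7 and 16 reads in the KO group without cytokines. mt-Tq with cytokines stood at 9, 3 and 8 reads in the WT group, at 5, 4 and 8 reads in the Het group and at 6, 3 and 11 reads in the KO group. In CPM all untreated Het libraries were above all untreated WT libraries, and all Het libraries with cytokines below those without. Counts of 2 to 16 reads a library leave wide counting error for both. The remaining 11 tRNA genes had between 1 read (mt-Tn, mt-Tc) and 92 reads (mt-Tl1) over all libraries. The sequences of 3 tRNAs are given because they show the contrast: mt-Tv (chrM:1025-1093) lies between the 2 rRNA genes and had 6 reads in 18 libraries, mt-Tw (chrM:4950-5016) had 436 and mt-Tt (chrM:15289-15355) 350. All are on the plus strand, and capitals mark the anticodon.
mt-Tv: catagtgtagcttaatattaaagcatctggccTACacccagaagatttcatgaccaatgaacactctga
mt-Tw: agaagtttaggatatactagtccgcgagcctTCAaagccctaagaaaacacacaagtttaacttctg
mt-Tt: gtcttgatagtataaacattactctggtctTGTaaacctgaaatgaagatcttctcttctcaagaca

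As a share of all counted reads, the 37 genes together took 1.09% to 1.58% in the 18 libraries. Without cytokines the share stood at 1.31, 1.15 and 1.09% in the WT group, at 1.58, 1.26 and 1.25% in the Het group and at 1.18, 1.52 and 1.20% in the KO group. The untreated groups overlapped, with means of 1.19% ± 0.113 in WT, 1.36% ± 0.189 in Het and 1.3% ± 0.191 in KO (SD, n = 3), and 1 library each of Het and KO stood above the others. With cytokines the share stood at 1.23, 1.11 and 1.20% in the WT group, at 1.40, 1.29 and 1.37% in the Het group and at 1.28, 1.42 and 1.53% in the KO group. Here every Het and every KO library was above every WT library, with means of 1.18% ± 0.0596 in WT, 1.35% ± 0.0585 in Het and 1.41% ± 0.122 in KO, while Het and KO overlapped. In bulk islet RNA a larger share may stem from more mitochondrial RNA per cell or from other proportions of cells, and these cannot be told apart.

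**Figure D2:**
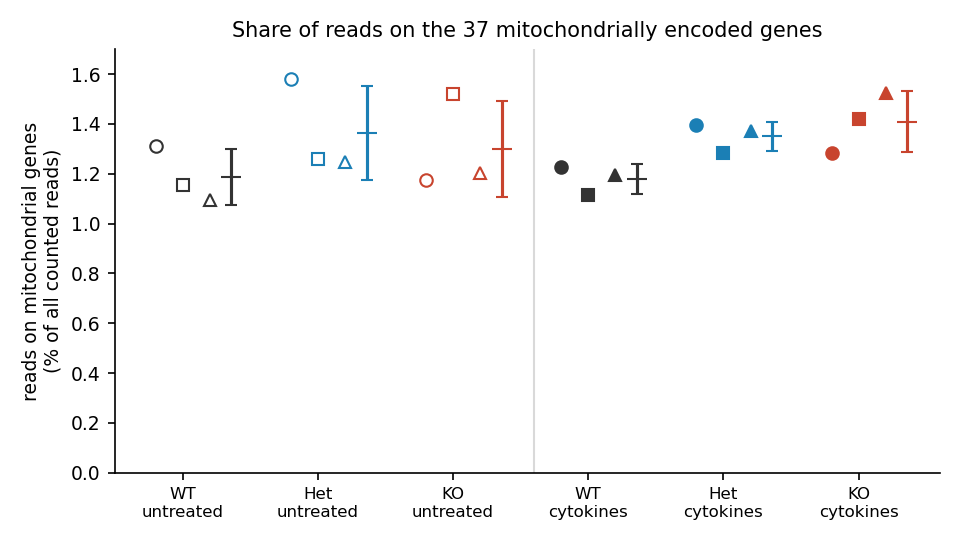
Share of counted reads on the 37 mitochondrial genes (%, vertical axis) in each library by genotype and treatment; circles, squares and triangles are replicates 1, 2 and 3, and the bars give mean ± SD of 3 libraries. With cytokines the Het (1.29 to 1.40%) and KO (1.28 to 1.53%) libraries lie above the WT libraries (1.11 to 1.23%), and without cytokines the groups overlap.

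Within a genotype the mean shares with and without cytokines lay closer together in WT and Het than in KO. The difference of means was -0.00769 percentage points in WT, -0.0109 in Het and 0.1099 in KO, each below the pooled SD of the groups compared (0.0901, 0.140 and 0.160). Between genotypes with cytokines it was 0.172 for Het against WT (pooled SD 0.0590) and 0.231 for KO against WT (pooled SD 0.0958). Without the acinar markers in the total these were 0.166 and 0.222. The protein genes alone gave 0.181 and 0.235. The size of the difference in KO depended on 1 library: without untreated KO replicate 2 it was larger, at 0.2202, and the other 2 untreated KO libraries were below all KO libraries with cytokines. With any 1 library left out it ran from 0.0486 to 0.2202. The share is a score over all genes described here and was not tested.

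By gene, the estimates of all 13 mRNAs were positive in KO against WT averaged over treatments, but none passed the threshold of adjusted p under 0.05. Averaged over treatments, 0 of the 19 genes that passed the low-count filter (13 protein, 2 rRNA and 4 tRNA genes) were called by the quasi-likelihood test of edgeR, adjusted over 17590 genes after Benjamini and Hochberg, of which 15.1% were called. At an unadjusted p under 0.05 there were 6 of 19, beside 30.5% of all genes. DESeq2 called 4 of 19 (mt-Nd1, mt-Nd2, mt-Nd5 and mt-Cytb), beside 19% of its genes. limma voom with quality weights called 9 (those 4 with mt-Co1, mt-Nd3, mt-Nd4, mt-Tw and mt-Tt), beside 28.9%. The estimate was positive for 17 of 19, with a median of 0.25 on the log2 scale, against 51.1% of all genes and a median of 0.01.

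mt-Nd1, the complex I subunit of smallest p, stood at 1773, 1401 and 1327 CPM in the WT group, at 2233, 1715 and 1678 CPM in the Het group and at 1476, 2036 and 1511 CPM in the KO group without cytokines. mt-Nd1 with cytokines stood at 1651, 1468 and 1538 CPM in the WT group, at 1969, 1758 and 1894 CPM in the Het group and at 1852, 2093 and 2221 CPM in the KO group. Every Het and KO library with cytokines was above every WT library with cytokines, and the untreated groups overlapped, apart from 1 Het and 1 KO library above the rest. The log2 change of mt-Nd1 was 0.30 ± 0.10 (adjusted p = 0.0563) averaged over treatments, 0.41 ± 0.14 (adjusted p = 0.102) with cytokines and 0.19 ± 0.14 (adjusted p = 0.52) without.

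mt-Nd5, which like mt-Nd2 forms part of the proton-pumping arm of complex I, stood at 2106, 1984 and 1798 CPM in the WT group, at 2579, 2067 and 1997 CPM in the Het group and at 1988, 2595 and 2060.2 CPM in the KO group without cytokines. mt-Nd5 with cytokines stood at 2002, 1611 and 2006 CPM in the WT group, at 2237, 2122 and 2227 CPM in the Het group and at 2015, 2343 and 2516 CPM in the KO group. The change in KO against WT averaged over treatments was 0.25 ± 0.09 (adjusted p = 0.0645) for mt-Nd5 and 0.28 ± 0.10 (adjusted p = 0.0719) for mt-Nd2. Both genes had every Het and KO library above every WT library with cytokines. mt-Nd6, from the other strand, stood at 30.9, 28.4 and 25.7 CPM in the WT group, at 34.6, 31.3 and 28.8 CPM in the Het group and at 29.02, 39.01 and 26.7 CPM in the KO group without cytokines. mt-Nd6 with cytokines stood at 26.8, 32.3 and 27.4 CPM in the WT group, at 32.8, 30.5 and 31.5 CPM in the Het group and at 30.5, 31.4 and 37.9 CPM in the KO group. Its groups overlapped in both treatments, and its change was 0.20 ± 0.09 (adjusted p = 0.167). The last 14 bases of mt-Nd5 overlap mt-Nd6 on the opposite strand, and no source read here says whether the libraries kept the strand.

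mt-Cytb, the complex III subunit that holds the quinone sites, stood at 2769.9, 2557 and 2525 CPM in the WT group, at 3329, 2602 and 2611 CPM in the Het group and at 2695, 3374 and 2663 CPM in the KO group without cytokines. mt-Cytb with cytokines stood at 2526, 2431 and 2629 CPM in the WT group, at 2849, 2784 and 2986 CPM in the Het group and at 2710.1, 2967 and 3118 CPM in the KO group. With cytokines all Het and KO libraries were above all WT libraries, and without them the groups overlapped. The change in KO against WT averaged over treatments was 0.20 ± 0.08 (adjusted p = 0.0861).

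mt-Co1 stood at 3892, 3283 and 3135 CPM in the WT group, at 4364, 3597 and 3655 CPM in the Het group and at 3286, 4112 and 3387 CPM in the KO group without cytokines. mt-Co1 with cytokines stood at 3645, 3361 and 3540.1 CPM in the WT group, at 4239, 3881 and 4189.8 CPM in the Het group and at 3743, 4198 and 4626 CPM in the KO group. It shared the pattern of mt-Nd1, with no overlap of WT with Het or KO among the cytokine libraries, and its change in KO against WT averaged over treatments was 0.18 ± 0.08 (adjusted p = 0.127). mt-Nd4, of complex I, ranged from 757.6 to 1021 CPM over the 18 libraries and had 0.17 ± 0.07 (adjusted p = 0.119).

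The genes whose sequence is largely copied in the nucleus had low counts and wide errors. mt-Co2, the complex IV subunit that receives electrons from cytochrome c, stood at 18.7, 12.9 and 11.3 CPM in the WT group, at 18.97, 16.3 and 17.05 CPM in the Het group and at 13.3, 18.8 and 12.8 CPM in the KO group without cytokines. mt-Co2 with cytokines stood at 15.5, 12.5 and 15.02 CPM in the WT group, at 15.6, 15.8 and 15.9 CPM in the Het group and at 16.3, 16.6 and 21.9 CPM in the KO group. Among the cytokine libraries, all Het libraries were above all WT libraries and all KO libraries above all Het libraries, and the change in KO against WT averaged over treatments was 0.22 ± 0.12 (adjusted p = 0.24). mt-Co3, the third complex IV subunit, stood at 17.8, 13.6 and 11.7 CPM in the WT group, at 20.97, 16.3 and 20.02 CPM in the Het group and at 14.04, 19.5 and 12.8 CPM in the KO group without cytokines. mt-Co3 with cytokines stood at 17.6, 12.1 and 16.2 CPM in the WT group, at 19.3, 14.8 and 17.1 CPM in the Het group and at 16.8, 20.2 and 22.04 CPM in the KO group. Its groups overlapped in both treatments, and its change was 0.25 ± 0.13 (adjusted p = 0.224).

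mt-Atp6, which forms part of the proton channel of ATP synthase, stood at 21.1, 13.9 and 11.3 CPM in the WT group, at 23.5, 18.2 and 20.9 CPM in the Het group and at 12.4, 22.3 and 14.03 CPM in the KO group without cytokines. mt-Atp6 with cytokines stood at 15.9, 12.1 and 15.3 CPM in the WT group, at 18.9, 15.3 and 16.5 CPM in the Het group and at 16.9, 22.7 and 22.4 CPM in the KO group. All KO libraries with cytokines were above all WT ones, and Het overlapped with both. mt-Atp8, the smallest subunit gene, stood at 0.886, 0.569 and 0.475 CPM in the WT group, at 1.74, 0.823 and 0.752 CPM in the Het group and at 0.400, 1.29 and 0.371 CPM in the KO group without cytokines. mt-Atp8 with cytokines stood at 0.830, 0.613 and 0.699 CPM in the WT group, at 0.971, 0.980 and 0.995 CPM in the Het group and at 1.00, 0.913 and 1.68 CPM in the KO group. Over both treatments these were 11 to 52 reads a library. The changes in KO against WT averaged over treatments were 0.31 ± 0.16 (adjusted p = 0.219) for mt-Atp6 and 0.42 ± 0.32 (adjusted p = 0.409) for mt-Atp8. mt-Nd3, at 0.812 to 1.97 CPM, had 0.37 ± 0.20 (adjusted p = 0.219), and mt-Nd4l, at 1.64 to 5.63 CPM, had 0.42 ± 0.21 (adjusted p = 0.197).

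Within each treatment the test of KO against WT called none of the 19 genes: without cytokines 0 of 19, beside 2.94% of all genes, and with cytokines 0 of 19, beside 5.33%. At an unadjusted p under 0.05 there were 0 and 5 of 19, beside 18.3% and 24% of all genes. Without cytokines DESeq2 and limma called 0 of 19, beside 6.12% and 9.98% of all genes. With cytokines each of these tools called 1 gene, mt-Nd1, beside 10.9% and 23.1% of all genes. The 3 genes of smallest p with cytokines were mt-Nd1, mt-Co1 with 0.26 ± 0.11 (adjusted p = 0.16) and mt-Nd5 with 0.29 ± 0.12 (adjusted p = 0.162). Of the 19 genes, 9 had all KO libraries above all WT libraries with cytokines, beside 15.4% of all genes tested, and 1 without, beside 9.47%. The 1 gene without cytokines was mt-Tt, with 0.53 ± 0.26 (adjusted p = 0.31).

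Het against WT averaged over treatments called 0 of 19, beside 0.398% of all genes. There were 5 of 19 at an unadjusted p under 0.05, beside 8.64%, and DESeq2 and limma called 0, beside 0.882% and 1.17% of all genes. The smallest p belonged to mt-Nd1, with 0.30 ± 0.10 (adjusted p = 0.342), followed by mt-Co1 with 0.20 ± 0.08 (adjusted p = 0.443) and mt-Nd2 with 0.24 ± 0.10 (adjusted p = 0.496). The estimates were positive for 16 of 19, with a median of 0.20, beside 50% of all genes. Within a treatment 0 of 19 were called, beside 0.00569% of all genes without cytokines and 0% with. Unadjusted p was under 0.05 for 2 and 0 of 19 (mt-Nd1 and mt-Co3 without cytokines), beside 6.97% and 7.03% of all genes. DESeq2 and limma called 0 without cytokines, beside 0.45% and 0.00569% of all genes, and 0 with them, beside 0.358% and 0.671% of all genes. With cytokines 8 of 19 genes had all Het libraries above all WT libraries, beside 9.01% of all genes, and without cytokines 4 of 19, beside 3.41%. These 4 were both rRNAs, mt-Tq and mt-Tw, while mt-Tp had all Het libraries below WT, beside 7.77% of all genes.

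No mitochondrial gene passed the test of KO against Het. In KO against Het averaged over treatments 0 of 19 were called, beside 0.699% of all genes, and 0 without (beside 0%) and with cytokines (beside 0.00569%). In none of the 3 comparisons did a gene reach an unadjusted p under 0.05, beside 16.4%, 14.6% and 8.32% of all genes. DESeq2 and limma called 0 in each, beside 4.34% and 15.2% of all genes averaged over treatments, beside 2.38% and 13% of all genes without and beside 0.34% and 0.87% of all genes with cytokines. With cytokines 2 of 19 genes, mt-Co2 and mt-Nd3, had all KO libraries above all Het libraries, beside 6.04% of all genes. The interval of estimate ± 2 SE of mt-Nd1 ran from -0.20 to 0.20 and that of mt-Co1 from -0.17 to 0.13, averaged over treatments. The smallest p averaged over treatments belonged to mt-Tt with 0.28 ± 0.19 (adjusted p = 0.47), mt-Nd4l with 0.30 ± 0.21 (adjusted p = 0.496) and mt-Tq with 0.24 ± 0.34 (adjusted p = 0.778). Without cytokines it was mt-Atp8 with -0.70 ± 0.44 (adjusted p = 0.481), and with cytokines mt-Atp6 with 0.30 ± 0.23 (adjusted p = 0.758).

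Markers of other cells moved with genotype beside these values. In KO against WT averaged over treatments, 19 of 19 tested acinar markers and 8 of 8 endothelial markers were lower, while 7 of 10 beta cell markers and 4 of 7 alpha cell markers were higher, beside 9.32% of all genes lower and 5.82% higher. Of the other lists, 0 of 4 delta cell markers, 1 of 6 duct and 1 of 9 mesenchymal markers (both lower) and 1 of 9 macrophage markers (higher) were called. The beta cell markers summed without cytokines to 181366 CPM in WT against 210993 CPM in KO islets, and to 153284 and 181318 CPM with cytokines. The part of these shifts in the levels of the mitochondrial genes was not tested. The 2 libraries of lowest quality weight in limma's fit, untreated Het replicate 1 (0.231) and untreated KO replicate 3 (0.480), touch the genotype results: without them edgeR called 7 of the 18 genes then tested, beside 23% of all genes, in KO against WT averaged over treatments (mt-Nd1, mt-Nd2, mt-Co1, mt-Nd4, mt-Nd5, mt-Nd6 and mt-Cytb).

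With cytokines, mt-Rnr2 in Het islets was the single call among these genes in the 16 comparisons of the fit. In Het islets it fell by 0.57 ± 0.20 on the log2 scale (edgeR adjusted p = 0.0495), so 1 of 19 genes was called, beside 24.5% of all genes, 11.7% of all genes being lower. mt-Rnr1 had -0.60 ± 0.22 (adjusted p = 0.0675) in the same comparison. mt-Rnr1 and mt-Rnr2 are the RNAs of the small and the large subunit of the mitochondrial ribosome and neighbours in the first transcribed part of the heavy strand. mt-Rnr2 stood at 421, 375 and 338 CPM in the WT group, at 574, 467 and 436 CPM in the Het group and at 362, 465 and 396 CPM in the KO group without cytokines. mt-Rnr2 with cytokines stood at 422, 386 and 301 CPM in the WT group, at 446, 254 and 284 CPM in the Het group and at 422, 341 and 344 CPM in the KO group. Het replicates 2 and 3 with cytokines were the lowest of all 18 libraries, and Het replicate 1 with cytokines overlapped with the untreated Het libraries.

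mt-Rnr1 stood at 222, 200.2 and 182 CPM in the WT group, at 267, 238 and 224 CPM in the Het group and at 181, 233 and 206 CPM in the KO group without cytokines. mt-Rnr1 with cytokines stood at 227, 208 and 169.7 CPM in the WT group, at 231, 113 and 133 CPM in the Het group and at 197, 143 and 144 CPM in the KO group. The same 2 Het libraries were lowest, followed by KO replicates 2 and 3 with cytokines, which were below every untreated library. The rRNA genes took 4.59% to 5.59% of the mitochondrial reads in the 9 untreated libraries. With cytokines the rRNA share of mitochondrial reads stood at 5.28, 5.33 and 3.94% in the WT group, at 4.85, 2.86 and 3.04% in the Het group and at 4.82, 3.41 and 3.20% in the KO group. In 4 libraries (Het and KO replicates 2 and 3) and in WT replicate 3 it was below all untreated libraries, and in the other 4 it was within the untreated range. Among the mRNAs, mt-Cytb was not low in them: in Het replicates 2 and 3 with cytokines stood at 2784 and 2986 CPM, beside 2849 CPM in replicate 1.

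An RNA of the nucleus was low in the same libraries. Rn7sk, the non-coding RNA that restrains transcription elongation and has no poly(A) tail, stood at 18.9, 25.9 and 18.5 CPM in the WT group, at 22.2, 20.9 and 18.5 CPM in the Het group and at 19.4, 22.8 and 19.3 CPM in the KO group without cytokines. Rn7sk with cytokines stood at 22.3, 22.2 and 17.3 CPM in the WT group, at 20.2, 6.86 and 13.7 CPM in the Het group and at 17.7, 11.7 and 9.59 CPM in the KO group. Its lowest 4 libraries were Het and KO replicates 2 and 3 with cytokines. CT010467.1, annotated as an rRNA on chromosome 17, stood at 142, 231 and 57.6 CPM in the WT group, at 113, 24.6 and 34.3 CPM in the Het group and at 88.9, 62.1 and 30.1 CPM in the KO group with cytokines, beside 81.0 to 122 CPM in the untreated libraries. Its lowest 3 libraries were Het replicates 2 and 3 and KO replicate 3 with cytokines, followed by WT replicate 3 and KO replicate 2, and it was highest in WT replicates 1 and 2. The 3857 rows of small non-coding RNA together, a class that includes both, stood at 128 to 174 CPM in the untreated libraries and at 56.2 to 99.3 CPM in these 4, beside 100.7 CPM in WT replicate 3 and 137 to 280.4 CPM in the other cytokine libraries. Rn7sk and CT010467.1 made up most of that sum. They stood at 18.9 and 87.4 CPM of 135 CPM in untreated WT replicate 1. In Het replicate 2 with cytokines they stood at 6.86 and 24.6 CPM of 56.2 CPM. The sum is therefore not separate from these 2 rows, and the other rows of the class were not summed alone. The replication-dependent histone rows, whose mRNAs also lack a poly(A) tail, were not low in Het and KO replicates 2 and 3 with cytokines: they stood at 318 to 347 CPM in these 4 libraries, at 283 to 322 CPM in the other cytokine libraries and at 206 to 262 CPM in the untreated ones. Rn7sk and CT010467.1 were chosen after their values were seen, neither passed the test of cytokines in Het islets (adjusted p = 0.196 and 0.31, edgeR), and their part in the rRNA result was not tested.

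**Figure D3:**
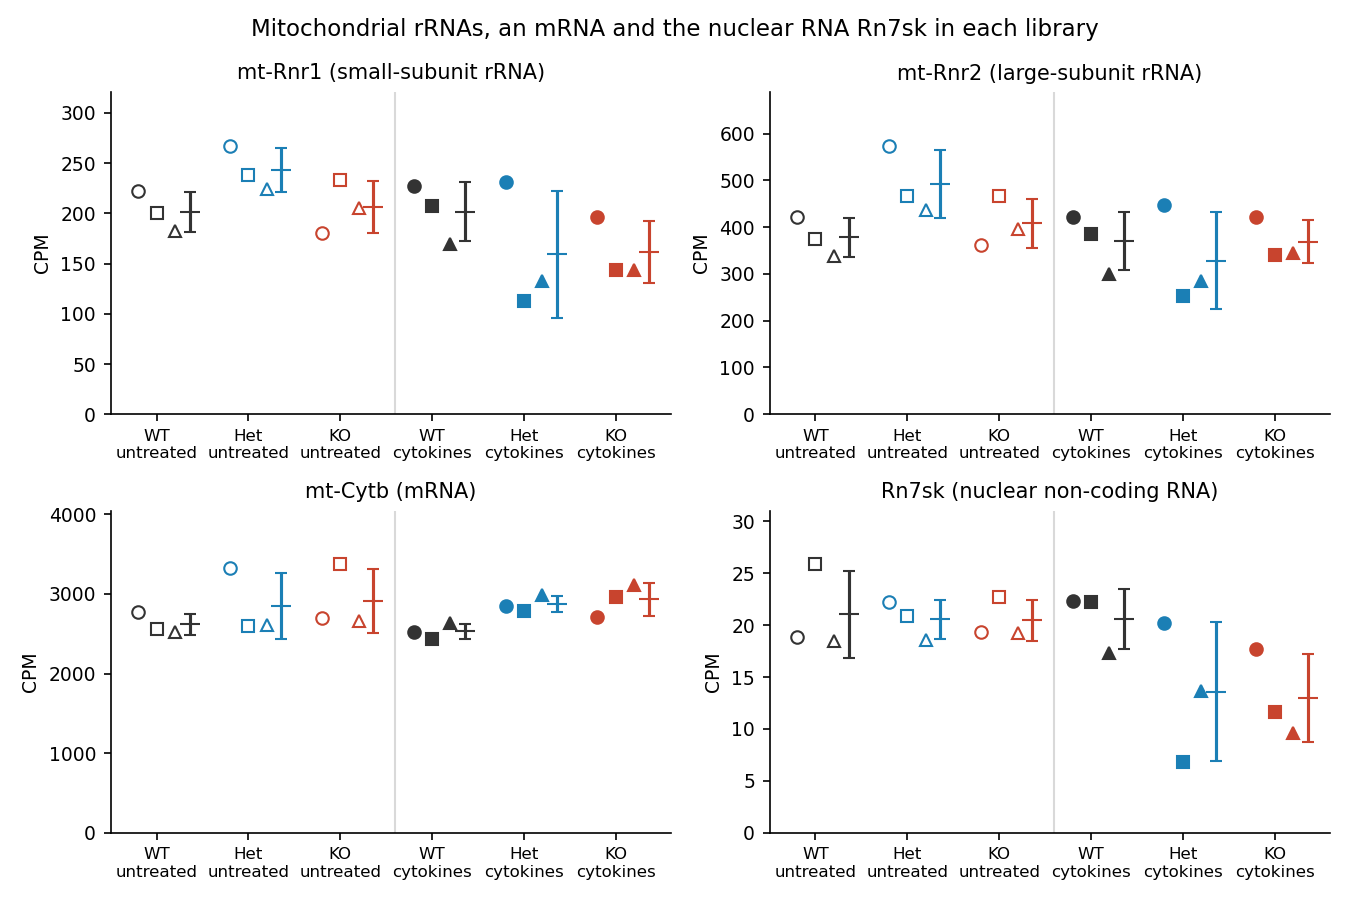
Levels (CPM, vertical axes from 0) of mt-Rnr1, mt-Rnr2, mt-Cytb and the nuclear RNA Rn7sk in each library by genotype and treatment; circles, squares and triangles are replicates 1, 2 and 3, open without and filled with cytokines, and bars give mean ± SD of 3 libraries. mt-Rnr1 and Rn7sk are lowest in replicates 2 and 3 of Het and KO with cytokines, mt-Rnr2 is lowest in the 2 Het ones (254 and 284 CPM), and mt-Cytb is not low in these libraries.

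The rRNA call rests on few libraries. In the same comparison 7 of 9 mesenchymal and 5 of 10 beta cell markers were lower, beside 11.7% of all genes, and their part in the rRNA call was not tested. Without either Het replicate 2 or 3 with cytokines, or without untreated Het replicate 1 or 2, 0 genes were called, and without Het replicate 1 with cytokines both rRNAs were. Both were also called by DESeq2 and neither by limma, beside 24.8% and 30.9% of all genes. For cytokines in WT islets mt-Rnr1 had 0.03 ± 0.22 (adjusted p = 0.931) and mt-Rnr2 -0.00 ± 0.20 (adjusted p = 0.998). In KO islets they had -0.35 ± 0.22 (adjusted p = 0.265) and -0.14 ± 0.20 (adjusted p = 0.649). The difference between the genotypes' responses was not called: for Het against WT it was -0.63 ± 0.31 (adjusted p = 0.881) for mt-Rnr1 and -0.57 ± 0.28 (adjusted p = 0.881) for mt-Rnr2. Averaged over genotypes the cytokine change was -0.30 ± 0.13 (adjusted p = 0.0655) for mt-Rnr1 and -0.24 ± 0.11 (adjusted p = 0.103) for mt-Rnr2. These calls depended on the replicate numbers. With any of the 3 replicate blocks both rRNAs were called in Het islets, beside 23.3% to 24.7% of all genes. Averaged over genotypes 2 mitochondrial genes were then called, where the fit without a block called 48.7% of all genes.

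The mRNAs of the mitochondrial genome did not pass the test of cytokines in any genotype, although many nuclear genes did. In WT 0 of 19 genes were called, beside 25.7% of all genes, with 0 of 19 at an unadjusted p under 0.05, beside 36.7%. In KO 0 of 19 were called, beside 31.3%, with 0 of 19 at an unadjusted p under 0.05, beside 41.3%. DESeq2 and limma called 0 in WT, beside 26% and 38.7% of all genes, and 0 in KO, beside 31% and 41.6% of all genes. The 3 genes of smallest p were in WT mt-Tp with -0.64 ± 0.47 (adjusted p = 0.352), mt-Tw with 0.27 ± 0.30 (adjusted p = 0.559) and mt-Co3 with 0.12 ± 0.19 (adjusted p = 0.686), and in KO mt-Nd1 with 0.30 ± 0.14 (adjusted p = 0.124), mt-Co1 with 0.22 ± 0.11 (adjusted p = 0.127) and mt-Atp8 with 0.83 ± 0.44 (adjusted p = 0.175). In KO islets the 5 genes mt-Nd1, mt-Co1, mt-Atp8, mt-Atp6 and mt-Co3 were called, all higher, once untreated KO replicate 2 was left out, which is 5 of 19 beside 24.5% of all genes in that fit.

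In Het islets 3 of 19 genes had an unadjusted p under 0.05, beside 35.1% of all genes. The lowest p among mRNAs was that of mt-Nd3, with -0.61 ± 0.27 (adjusted p = 0.121), and mt-Nd3, mt-Co2 and mt-Tq had all cytokine libraries below all untreated ones, beside 19.8% of all genes tested. Averaged over genotypes 0 of 19 genes were called, beside 48.7% of all genes. There was 1 of 19 at an unadjusted p under 0.05, mt-Rnr1, beside 54.4%, and the next were mt-Co1 with 0.13 ± 0.06 (adjusted p = 0.0951) and mt-Rnr2. DESeq2 called 2 there (mt-Rnr1 lower and mt-Co1 higher) and limma 0, beside 47.8% and 55.8% of all genes. The interval of ± 2 SE ran from 0.01 to 0.25 for mt-Co1, from -0.08 to 0.15 for mt-Nd4, from -0.12 to 0.13 for mt-Cytb and from -0.14 to 0.15 for mt-Nd5.

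**Figure D4:**
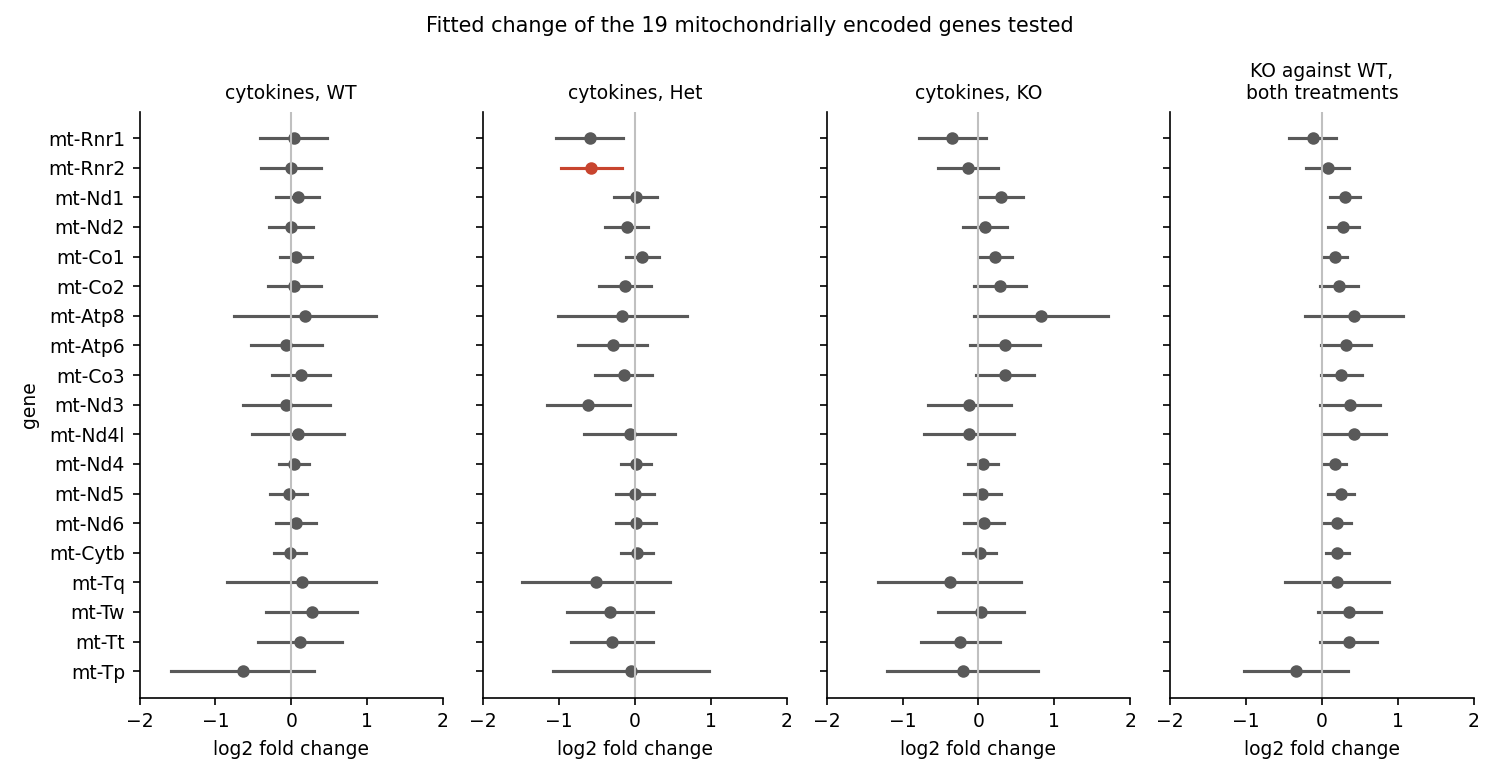
Log2 fold change (horizontal axis) of the 19 mitochondrial genes tested, with lines of ± 2 SE, for cytokines in each genotype and for KO against WT averaged over treatments. The 1 gene with an adjusted p under 0.05, mt-Rnr2 in Het islets, is in red; in KO against WT 17 of 19 estimates are above 0 and none was called.

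None of the 3 differences between genotypes in the cytokine response was called for a mitochondrial gene, and none reached an unadjusted p under 0.05 in edgeR. This was 0 of 19 for Het to WT (beside 0% of all genes called), 0 of 19 for KO to WT (beside 0.0114%) and 0 of 19 for KO to Het (beside 0%), and DESeq2 and limma called 0 in each, beside 0% and 0% of all genes, beside 0.365% and 0.0853% of all genes and beside 0.00569% and 0% of all genes in the same order. At an unadjusted p under 0.05 it was 4.79%, 6.73% and 5.73% of all genes. The smallest p for KO to WT belonged to mt-Atp6 with 0.42 ± 0.33 (adjusted p = 0.9), and for KO to Het to mt-Atp6 with 0.64 ± 0.33 (adjusted p = 0.867).

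The 6 abundant protein genes varied less in their proportions to each other than in their levels. Among the reads on the 13 protein genes, mt-Co1 took 30.6% ± 0.983 (SD over 18 libraries), mt-Cytb 22.5% ± 0.872, mt-Nd5 17.1% ± 0.645, mt-Nd1 14.1% ± 0.787, mt-Nd2 8.05% ± 0.347 and mt-Nd4 6.93% ± 0.249. The coefficient of variation of these shares was 3.22% to 5.58%, against 9.18% to 15.8% for the CPM of the same genes. mt-Nd1 varied most among the 6. Its ratio to mt-Cytb in reads was 0.571 ± 0.0606 in WT, 0.658 ± 0.0141 in Het and 0.573 ± 0.0284 in KO islets without cytokines (SD, n = 3). With cytokines it was 0.614 ± 0.0354, 0.652 ± 0.0336 and 0.700 ± 0.0150. In KO islets the cytokine libraries (0.683 to 0.712) lay above the untreated ones (0.547 to 0.603), and in Het islets the groups overlapped.

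The 2 rRNAs had 1.77 to 2.39 reads of mt-Rnr2 for each read of mt-Rnr1. This ratio was 1.88 ± 0.0214 in untreated WT and 1.83 ± 0.0489 in WT islets with cytokines, and 1.98 ± 0.0434 and 2.31 ± 0.139 in KO islets. In KO islets all 3 cytokine libraries (2.15 to 2.39) were above the untreated ones (1.93 to 2.00). In Het islets it was 2.02 ± 0.112 without and 2.10 ± 0.158 with cytokines, and these groups overlapped. Untreated Het replicate 1, at 2.147, was above KO replicate 1 with cytokines, at 2.145. The ratio of mt-Nd6 to mt-Nd5, genes on opposite strands, was 0.0129 to 0.0201 with a mean of 0.0146 ± 0.00152, and its highest value was in 1 WT library with cytokines. Whether the libraries kept the strand is not stated, so this ratio need not compare RNA of the 2 strands.

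The nuclear partners of these subunits were read from lists of named subunits. Those of complex IV, the terminal oxidase built around mt-Co1, rose with cytokines: 7 of 11 in WT, 5 of 11 in Het and 11 of 11 in KO islets, where 12.5%, 12.7% and 15.3% of all genes were higher, and none was lower. The median changes were 0.17, 0.18 and 0.30. Cox5a, a subunit that binds around the catalytic core, rose by 0.60 ± 0.07 in WT, 0.56 ± 0.07 in Het and 0.72 ± 0.07 in KO islets on the log2 scale. Ndufa4 rose by 0.30 ± 0.06, 0.23 ± 0.06 and 0.31 ± 0.06 in the same order. Beside these, the mitochondrial complex IV genes had medians of 0.07, -0.13 and 0.29, and 0 of 3 were called in each genotype. Of these 3, mt-Co2 and mt-Co3 are among the genes whose low counts cannot be read as low RNA levels. In Het islets the mean of mt-Co1 was 3872 CPM without and 4103 CPM with cytokines. That of mt-Co2 was 17.4 and 15.8 CPM and that of mt-Co3 19.1 and 17.1 CPM in the same order. The libraries of mt-Co1 and of mt-Co3 overlapped between treatments. Beta cell markers were lower with cytokines for 5 of 10 in each genotype. Delta cell markers were lower for 3, 1 and 2 of 4 and mesenchymal markers for 3, 7 and 1 of 9, in the order used above. Among all genes 13.1%, 11.7% and 16% were lower. The mean alpha cell marker sum went from 14036 to 8432 CPM in WT, 15581.5 to 9352 CPM in Het and 17129 to 11131 CPM in KO islets. The duct marker sum went the other way, from 2295 to 4973, 3427 to 3840 and 1651 to 3328 CPM, with overlap in Het. The PP marker sum went from 3291 to 1865, 2658 to 1902 and 3091 to 2154 CPM. The part of the marker shifts in the changes of mitochondrial and subunit genes was not tested.

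In each genotype a smaller share of the other complexes passed the test. Of 36 nuclear complex I subunits 1, 2 and 3 were higher with cytokines in WT, Het and KO islets. Of 9 complex III subunits 2, 1 and 4 were higher, among them Uqcrh with 0.25 ± 0.05 (adjusted p = 0.00256) in WT. Of 15 nuclear ATP synthase genes 3, 1 and 6 were higher and 1, 0 and 2 lower. Complex III also had 1 lower, Uqcrq in Het with -0.25 ± 0.08 (adjusted p = 0.0309). Complex II, which has no mitochondrial gene, had 1, 0 and 1 of 4 higher, in both cases Sdhd. For complex I the shares that were higher were below those of all genes, and the mitochondrial genes of complexes I and III and of ATP synthase had 0 calls.

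In KO against WT averaged over treatments, 7 of 36 nuclear complex I genes and 5 of 15 ATP synthase genes were higher and none lower, beside 5.82% of all genes called higher. Ndufa1, an accessory subunit of complex I, had 0.25 ± 0.06 (adjusted p = 0.0118), Ndufb11 0.18 ± 0.05 (adjusted p = 0.0181), and Atp5l of ATP synthase 0.25 ± 0.05 (adjusted p = 0.0032). Of complexes II, III and IV, 1 of 4, 2 of 9 and 1 of 11 were higher. The median estimate was 0.09 for nuclear complex I and 0.05 for nuclear ATP synthase genes, where the 7 mitochondrial complex I genes had 0.28 and the 2 mitochondrial ATP synthase genes 0.37. Both of these ATP synthase genes, and mt-Nd3 and mt-Nd4l of complex I, are among those whose low counts cannot be read as low RNA levels. In Het against WT averaged over treatments 0 of 36 nuclear complex I, 0 of 11 complex IV and 0 of 15 ATP synthase genes were called.

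**Figure D5:**
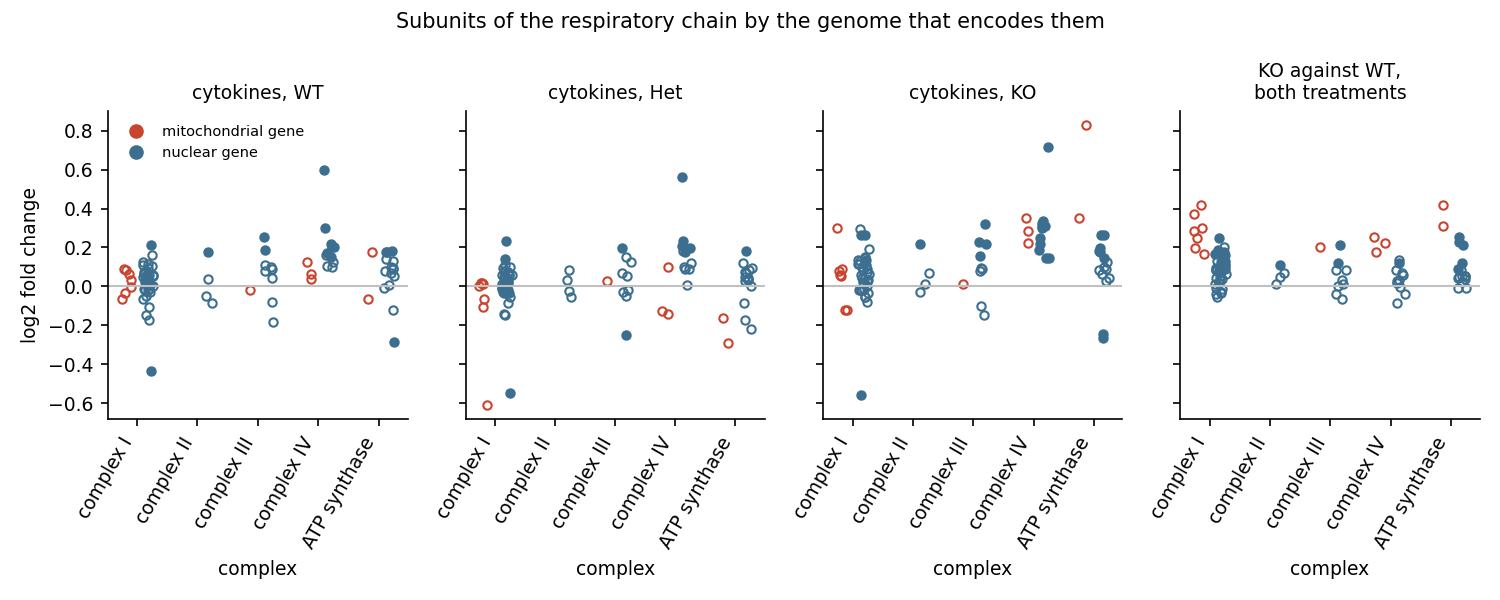
Log2 fold change (vertical axis) of each subunit gene by complex, for cytokines in each genotype and for KO against WT averaged over treatments; red points are mitochondrial and blue points nuclear genes, and filled points have an adjusted p under 0.05. All 11 nuclear complex IV genes are filled in KO islets with cytokines, and no mitochondrial subunit gene is filled in any panel.

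Genes that act on mitochondrial DNA and RNA were also read from lists of named genes. Of 11 genes of mitochondrial transcription 0 were higher and 4, 1 and 0 lower with cytokines in WT, Het and KO islets, beside 13.1%, 11.7% and 16% of all genes. Tfam, which packages mitochondrial DNA and starts its transcription, had -0.17 ± 0.05 (adjusted p = 0.0197) in WT, -0.20 ± 0.05 (adjusted p = 0.0103) in Het and -0.14 ± 0.05 (adjusted p = 0.0532) in KO islets. In WT the others were Mterf1b with -0.96 ± 0.23 (adjusted p = 0.00584), Mterf2 with -0.59 ± 0.15 (adjusted p = 0.00815) and Tfb1m, the methyltransferase that modifies the small rRNA, with -0.40 ± 0.12 (adjusted p = 0.0201). Of 12 regulators of mitochondrial biogenesis, Nrf1, a transcription factor of respiratory genes, had -0.46 ± 0.05 (adjusted p = 1.19e-05) in WT, -0.45 ± 0.05 (adjusted p = 1.26e-05) in Het and -0.57 ± 0.05 (adjusted p = 7.1e-07) in KO islets, while Esrra, a nuclear receptor, rose by 0.37 ± 0.07, 0.40 ± 0.07 and 0.52 ± 0.07.

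Of 22 genes that process or modify mitochondrial RNA, 0, 0 and 1 passed with cytokines in WT, Het and KO: Trmt5, a tRNA methyltransferase, with -0.33 ± 0.12 (adjusted p = 0.0405) in KO. Of all genes 25.7%, 24.5% and 31.3% were called in that order. Of all genes 12.5%, 12.7% and 15.3% were higher, and 13.1%, 11.7% and 16% lower. Of 17 genes of mitochondrial RNA stability 2, 1 and 1 were higher, among them Slirp, the partner of the mRNA-stabilising protein Lrpprc, with 0.26 ± 0.08 (adjusted p = 0.0228) in WT and 0.24 ± 0.08 (adjusted p = 0.0312) in Het, and Fastkd1 was lower in WT with -0.38 ± 0.12 (adjusted p = 0.0313). Of 13 genes of mitochondrial DNA replication and maintenance 1 was higher in each genotype and 1, 0 and 1 lower. The higher ones were Lig3 with 0.16 ± 0.05 (adjusted p = 0.0325) in WT and Polg2, the accessory subunit of the DNA polymerase, in Het with 0.55 ± 0.17 (adjusted p = 0.0293) and in KO with 0.75 ± 0.17 (adjusted p = 0.00331), and the lower ones Rrm2b with -0.31 ± 0.10 (adjusted p = 0.0287) in WT and Twnk, the DNA helicase, with -0.21 ± 0.07 (adjusted p = 0.0451) in KO. In KO against WT averaged over treatments the calls in these lists were Mterf3 with 0.19 ± 0.06 (adjusted p = 0.0457), Tbrg4 with -0.19 ± 0.04 (adjusted p = 0.00827), Rexo2 with 0.15 ± 0.04 (adjusted p = 0.0191), Endog with 0.22 ± 0.06 (adjusted p = 0.0307), Esrrg with 0.44 ± 0.11 (adjusted p = 0.0175) and Pprc1 with -0.15 ± 0.04 (adjusted p = 0.0304). No gene of mitochondrial DNA replication passed there, the smallest p being that of Dguok with 0.18 ± 0.06 (adjusted p = 0.0603).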

How the data were processed

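RNA-seq of islets gave 18 libraries, 3 in each of 6 groups, taken from the sample labels. The deposited table holds whole read counts per gene, which the authors did not normalise, per the labels and the values. The submitters' processing notes name FastQC 0.11.7, cutadapt 1.16, STAR 2.5.2a, featureCounts 1.6.2, DESeq2 1.30.0 and the build GRCm38, without roles or order. Read length, strandedness, RNA selection and the handling of reads with several matches are not given in the sources used here.

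Counts were tested with edgeR 4.0.16 (R 4.3.3): filterByExpr with a count minimum of 10, TMM, 1 quasi-likelihood fit of 6 groups with robust estimation, 16 comparisons and Benjamini-Hochberg adjustment over 17590 genes at 0.05. Robust estimation was adopted after results without it were seen. SE is the absolute log2 change divided by the square root of F, and intervals are ± 2 SE. Of the 37 genes, 19 passed the filter, and the other 18, all tRNA genes, were counted but not tested. RPKM used transcript lengths of GENCODE M21, on GRCm38. Nuclear copies were found with BLAST 2.17.0 against the same transcripts.

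Alternatives were DESeq2 1.42.0, limma 3.58.1, other scalings and filters, replicate blocks and left-out libraries. The genes, lists and tests were chosen with earlier results of these data known. Values in every library are given for both rRNAs, for mt-Nd1, mt-Nd5, mt-Nd6, mt-Cytb, mt-Co1, mt-Co2, mt-Co3, mt-Atp6, mt-Atp8 and for the 4 tRNA genes of highest mean. In each comparison the genes called, or the up to 3 of smallest p, are named, and from other lists up to 4 called genes. Intervals of ± 2 SE reflect the spread among libraries, and the limits given for a count of 0 cover counting error only. The result for 1 listed nuclear gene is not reported here.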

Additional observations from a re-analysis of the deposited data

How the results depend on the processing

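Counts of mitochondrial genes called (adjusted p under 0.05, of those tested in each fit) depended on the fit. The fit reported above called 24.5% of all genes for cytokines in Het, 31.3% in KO islets and 48.7% averaged over genotypes. For KO against WT it called 15.1% averaged over treatments, 5.33% with cytokines and 2.94% untreated. For KO against Het it called 0% untreated and 0.699% averaged over treatments. Where no share stands beside a count below, the share of all genes in that fit is not given. For cytokines in Het islets the count of 1 became 0 with RLE size factors, with no low-count filter and with only the groups compared. It also became 0 with the genes of the authors' filtered table (which lacks both rRNAs) and without the 2 libraries of lowest quality weight. With limma it was 0, beside 30.9% of all genes. It was 2 with DESeq2, beside 24.8% of all genes, and 2 with a fit without robust estimation. It ran from 0 to 2 when 1 library was left out. For KO against WT averaged over treatments the count of 0 became 2 with RLE and 5 with only the groups compared. It became 4 with DESeq2, 9 with limma and 7 without those 2 libraries, beside 19%, 28.9% and 23% of all genes. It ran from 0 to 5 when 1 library was left out (5 without untreated KO replicate 3, 1 without untreated WT replicate 1). For KO against WT with cytokines 0 became 2 with only the groups compared. It became 1 with DESeq2 and with limma, beside 10.9% and 23.1% of all genes, and 3 without those 2 libraries. Without them 1 gene, mt-Cytb, was also called in KO against WT untreated, in KO against Het untreated and in KO against Het averaged over treatments. For cytokines averaged over genotypes 0 became 2 with DESeq2, beside 47.8% of all genes. It became 1 with no filter (mt-Ts1), without robust estimation and without those 2 libraries, and ran from 0 to 2 when 1 library was left out. For cytokines in KO islets it ran from 0 to 5 (5 without untreated KO replicate 2, beside 24.5% of all genes).

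Same-numbered libraries did not deviate together throughout: the correlation ran from -0.219 to 0.392 over 9 pairs, with only Het replicate 3 below 0. Between libraries of different number within a genotype it ran from -0.437 to 0.361 and was mostly below 0. Deviations from a group mean sum to 0 over the group, so these values are not separate from those of the same-numbered libraries. The numbers were not taken as pairs, but shared mice remain possible. With any of the 3 replicate blocks 2 genes, both rRNAs, were called for cytokines in Het islets, beside 23.3% to 24.7% of all genes. Averaged over genotypes 2 were called with a block, where the fit without a block called 48.7% of all genes. With the replicate block within genotype 1 gene, mt-Nd1, was called in KO islets, beside 31.5% of all genes. The estimate of mt-Atp8 in KO against Het untreated turned to 0.15 without the 2 libraries of lowest weight. That of mt-Tq in KO against Het averaged over treatments (0.24) ran from -0.0327 to 0.3875 when 1 library was left out and was below 0 without replicate 3 of either KO group. With a total that leaves out the 10 nuclear genes of highest mean count, the difference in share with cytokines was 0.328 percentage points for KO against WT and, for the protein genes, 0.241 for Het against WT. A smaller total by itself raises every share, so these values are not on the same scale as 0.2305 and 0.1808 with the full total. The cause of the changed calls and estimates was not tested, and alternatives chosen after the data were seen were the fit without robust estimation, the block by the number of the metadata and the omission of 2 libraries.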
